A study of Mus musculus with 18 samples.

Results

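The genes described here are Greb1, Padi2, Ptpn5, Lrtm2, Gadd45g and Kcnh1, a set named for estrogen induction in the uterus. They were taken by symbol and make up 6 of the 22238 gene symbols in the count table. Each of the 6 passed the filter on low counts. Total RNA of whole uterus was sequenced from ovariectomized adult mice of the outbred CD-1 stock. Every group therefore lacks ovarian hormone of its own, and ovariectomy is shared by the controls. Mice received doxorubicin (DOX, an anthracycline used in chemotherapy) or phosphate-buffered saline (PBS), and within each arm oil (OIL), estradiol (E2) or progesterone (P4). This gives 6 groups of 3 libraries: PBS OIL, DOX OIL, PBS E2, DOX E2, PBS P4 and DOX P4. The labels state neither dose nor time. Whether each library is from its own mouse is not stated, and the p-values rest on the spread among the libraries, which may be technical.

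Estradiol acts mainly through the nuclear receptor encoded by Esr1, which binds estrogen response elements in DNA and also acts through other DNA-bound factors. In the uterus it drives proliferation and secretion of the epithelium and swelling of the stroma, and progesterone opposes part of this program. Greb1 encodes a cofactor bound by the estrogen receptor and is a widely used readout of estrogen action. Padi2 encodes a peptidylarginine deiminase, which converts arginine in proteins, histones among them, to citrulline. Ptpn5 encodes STEP, a tyrosine phosphatase known from the striatum that acts on MAP kinases and Fyn. Gadd45g encodes a small stress-inducible protein that binds MAP3K4 and PCNA. Lrtm2 encodes a membrane protein with leucine-rich repeats, and Kcnh1 encodes the voltage-gated potassium channel EAG1.

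On mouse build GRCm38 with GENCODE M21, Greb1 lies on chromosome 12 at 16670615 to 16800886 (minus strand), Padi2 on chromosome 4 at 140906344 to 140952586 (plus), and Ptpn5 on chromosome 7 at 47077795 to 47133684 (minus). Lrtm2 lies on chromosome 6 at 119315133 to 119330766 (minus), Gadd45g on chromosome 13 at 51846678 to 51848468 (plus) and Kcnh1 on chromosome 1 at 192190774 to 192510159 (plus). Of genes in the table, Lrtm2 overlaps Cacna2d4 and Kcnh1 overlaps Hhat, each on the opposite strand, with 0 shared exon bases in either pair. Hhat did not move with Kcnh1: under E2 it was lower with DOX (log2 fold change -0.94 ± 0.18 SE, adjusted p = 0.000707), where Kcnh1 was higher.

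Because 5 of the 6 genes moved together under E2, their promoters were searched for the letters of an estrogen response element, whose full palindrome is GGTCANNNTGACC and whose single arm reads GGTCA on one strand and TGACC on the other. The windows were the 250 bases upstream of each RefSeq start on GRCm38.p6, 9 windows for the 6 genes. The full palindrome was in 0 of the 9 windows, against 0.0639% of all 32851 promoter windows. A single arm was in both Greb1 windows and in the Kcnh1 window, against 35.2% of all windows. The sequences below show the outer Greb1 start and the Kcnh1 start, which hold an arm, and the Padi2 and Gadd45g starts, which hold none. They run 5′ to 3′ on the gene's strand toward the start, stop before any annotated UTR base, and have the arm in capitals.
Greb1 (chr12:16800887-16801136, minus strand): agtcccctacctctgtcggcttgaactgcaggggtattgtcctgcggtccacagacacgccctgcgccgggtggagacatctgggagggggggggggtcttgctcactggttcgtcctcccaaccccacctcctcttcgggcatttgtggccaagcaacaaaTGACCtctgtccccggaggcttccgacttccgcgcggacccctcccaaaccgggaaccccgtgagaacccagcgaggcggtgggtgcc
Kcnh1 (chr1:192190527-192190773, plus strand): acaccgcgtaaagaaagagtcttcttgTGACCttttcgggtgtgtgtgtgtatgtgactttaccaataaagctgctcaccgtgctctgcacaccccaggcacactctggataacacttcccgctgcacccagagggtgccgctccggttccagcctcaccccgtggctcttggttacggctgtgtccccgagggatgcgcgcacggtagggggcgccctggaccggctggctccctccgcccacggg
Padi2 (chr4:140906110-140906343, plus strand): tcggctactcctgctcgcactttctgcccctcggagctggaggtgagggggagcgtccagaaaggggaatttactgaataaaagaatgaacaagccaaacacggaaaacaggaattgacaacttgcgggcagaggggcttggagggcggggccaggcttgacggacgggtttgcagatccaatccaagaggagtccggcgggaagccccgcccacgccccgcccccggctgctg
Gadd45g (chr13:51846425-51846674, plus strand): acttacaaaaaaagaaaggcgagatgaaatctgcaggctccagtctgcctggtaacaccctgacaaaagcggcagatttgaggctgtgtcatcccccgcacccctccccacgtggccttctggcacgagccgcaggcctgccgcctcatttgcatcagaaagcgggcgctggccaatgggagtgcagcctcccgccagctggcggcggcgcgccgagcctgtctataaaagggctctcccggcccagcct
The Greb1 arm lies 88 to 84 bases upstream of the start and the Kcnh1 arm 223 to 219 bases upstream. GC boxes (GGGCGG or CCGCCC), which the factor SP1 binds, numbered 3 in the Padi2 window and 1 in the Kcnh1 window. The inner Ptpn5 window held 3 and the inner Lrtm2 window 1. There were 0 in the Gadd45g window, both Greb1 windows and the outer Ptpn5 and Lrtm2 windows. Of all windows, 32.7% hold at least 1. A match is a description of the letters, and elements farther away were not searched.

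The libraries held 18042357 to 39783785 counts, with PBS E2 replicate 1 the deepest and DOX E2 replicate 3 next at 28122299. Levels below are CPM, counts divided by the TMM-scaled library size, and changes are log2 fold changes with their SE from edgeR over 15494 tested genes. Each of 8 uterine markers, Esr1 and Hoxa10 among them, was detected in every group. Of 8 ovarian markers, Fshr and Hsd3b1 had 0 counts in every group, and Cyp19a1 had 1 count, in DOX E2. Star, Cyp11a1, Foxl2, Amh and Inha were detected in every group, so the list was not absent. The mean summed level of the 8 was lowest in PBS OIL (64.4 CPM) and highest in DOX E2 (123.1 CPM). In bulk tissue, fewer cells of a type and less RNA per cell cannot be told apart. Fat differed between libraries: the summed level of 12 adipocyte markers was 376.8 to 5977 CPM in the PBS E2 libraries, highest in replicate 1, and 45.4 to 284.1 CPM in the DOX E2 libraries, with 0 of the 12 markers undetected in either group.

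E2 raised Greb1, Padi2, Ptpn5, Lrtm2 and Gadd45g in both arms, by 6.80-fold for Greb1 up to 128-fold for Ptpn5 in the PBS arm. Kcnh1 went against the name of the set. It fell with E2 in the PBS arm and rose with E2 in the DOX arm. In the PBS arm 5 of the 6 genes were called higher and 1 lower, and 61.4% of all tested genes were called there, 29.6% higher and 31.9% lower. In the DOX arm 6 of 6 were called higher, where 72.6% of all genes were called and 35.1% were higher. Of the largest rises among the 15494 genes, Ptpn5 ranked 9 in the PBS arm and 18 in the DOX arm, Gadd45g 22 and 50, Lrtm2 24 and 70, Padi2 119 and 72, and Greb1 177 and 210.

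**Figure D1:**
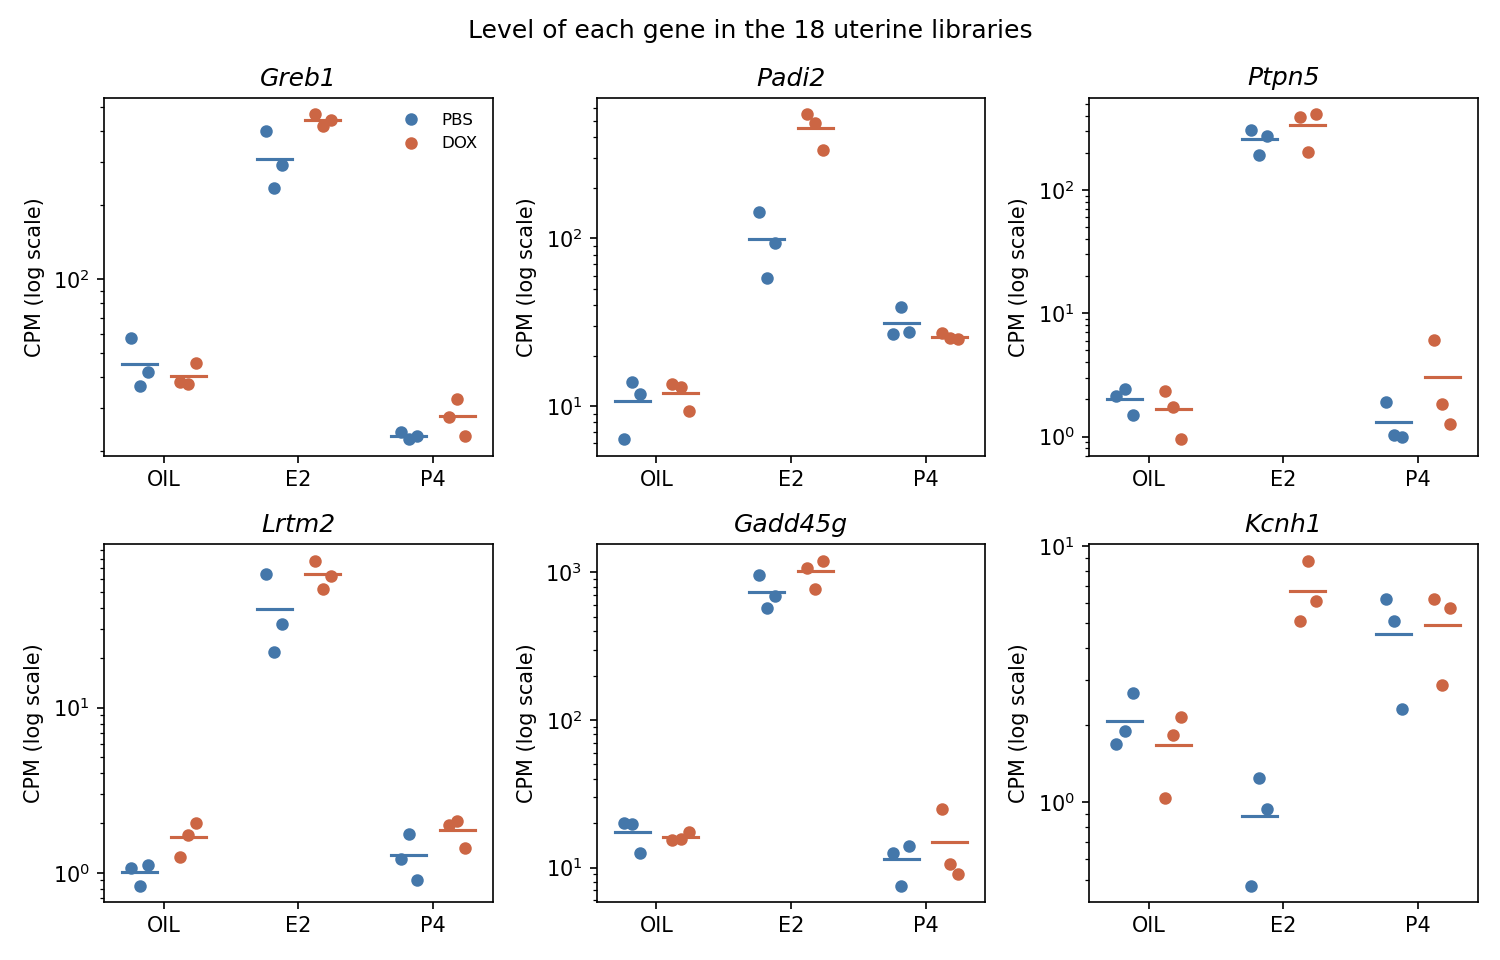
Level of each gene in the 18 libraries, in CPM on a log axis, by hormone (OIL, E2, P4) and arm (blue PBS, orange-red DOX). Points are libraries and bars are means of 3; the E2 libraries stand above all others for 5 genes, while Kcnh1 is lowest in PBS E2 (0.473 to 1.25 CPM) and highest in DOX E2 (5.11 to 8.77 CPM).

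Greb1, the receptor cofactor, stood at 57.5, 36.7 and 42.0 CPM in the PBS OIL libraries and 38.2, 37.6 and 45.6 CPM in the DOX OIL libraries. Under E2 it reached 402, 234 and 291 CPM in the PBS arm and 469, 419 and 444 CPM in the DOX arm. The 3 DOX E2 libraries were all above the 3 PBS E2 libraries, and no E2 library overlapped an OIL library. The E2 response was 2.77 ± 0.19 in the PBS arm (adjusted p = 1.82e-08) and 3.45 ± 0.20 in the DOX arm (adjusted p = 8.74e-10). Their difference of 0.69 ± 0.26 did not pass (95% interval 0.14 to 1.24, adjusted p = 0.0652). It passed without PBS E2 replicate 1 (0.92, adjusted p = 0.00683) or PBS OIL replicate 2 (0.82, adjusted p = 0.0357), and by DESeq2 (0.69, adjusted p = 0.0472) and limma voom with library quality weights, limma voom below (0.67, adjusted p = 0.0133). Greb1 was also the gene of the set with the tightest DOX E2 group, with an SD of 5.64% of the mean against 27.6% in PBS E2.

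Padi2, the deiminase, showed by value the largest difference between the arms of the 5 genes induced in both. It stood at 6.33, 13.8 and 11.9 CPM in PBS OIL and 13.6, 12.98 and 9.32 CPM in DOX OIL. Under E2 it was at 144, 58.1 and 94.5 CPM in the PBS arm and at 549, 484 and 335 CPM in the DOX arm. Every DOX E2 library was above the highest PBS E2 library, and the OIL groups of the arms overlapped. The response was 3.21 ± 0.33 in the PBS arm (9.27-fold, adjusted p = 6.16e-07) and 5.25 ± 0.35 in the DOX arm (38.0-fold, adjusted p = 3.22e-09). The difference between the arms was 2.04 ± 0.44 (95% interval 1.11 to 2.97, adjusted p = 0.00488). It passed in all 20 alternatives run, with values of 1.77 to 2.41, and was 2.18 with the adipocyte score as a covariate.

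Ptpn5, the phosphatase, went from near the floor to one of the most induced transcripts of the uterus. Its levels were 2.14, 2.41 and 1.49 CPM in PBS OIL (32 to 52 counts a library) and 2.36, 1.74 and 0.948 CPM in DOX OIL. With E2 they were 307, 194 and 274 CPM in the PBS arm and 389, 204 and 412 CPM in the DOX arm. The E2 groups of the arms overlapped, and both were far from every other group. The response was 7.00 ± 0.50 (128-fold, adjusted p = 2.19e-08) in the PBS arm and 7.60 ± 0.52 (194-fold, adjusted p = 3.52e-09) in the DOX arm. The difference of 0.60 ± 0.67 did not pass (95% interval -0.83 to 2.04, adjusted p = 0.545). It was 0.34 to 0.94 with 1 library left out and 1.29 with the adipocyte covariate (adjusted p = 0.154).

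Gadd45g, the stress-inducible protein, was the most abundant of the 6 per length of exon in every group. It stood at 20.1, 19.7 and 12.5 CPM in PBS OIL and 15.4, 15.5 and 17.5 CPM in DOX OIL. Under E2 it rose to 955, 572 and 696 CPM in the PBS arm and 1069, 772 and 1204 CPM in the DOX arm. The arms overlapped under E2. The response was 5.41 ± 0.39 (42.4-fold, adjusted p = 2.19e-08) and 5.97 ± 0.40 (62.9-fold, adjusted p = 2.98e-09), with a difference of 0.57 ± 0.47 that did not pass (95% interval -0.42 to 1.56, adjusted p = 0.398). With the adipocyte covariate the difference was 1.14 (adjusted p = 0.0765).

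Lrtm2, the leucine-rich repeat membrane protein, had nearly equal responses in the arms. It was at 1.07, 0.836 and 1.12 CPM in PBS OIL (18 to 24 counts a library) and at 1.24, 1.70 and 2.001 CPM in DOX OIL. With E2 it reached 64.1, 21.7 and 32.2 CPM in the PBS arm and 77.9, 52.2 and 62.8 CPM in the DOX arm. The DOX OIL libraries all lay above the PBS OIL libraries, and the E2 groups overlapped through PBS E2 replicate 1. The response was 5.28 ± 0.39 (39.0-fold, adjusted p = 2.69e-08) in the PBS arm and 5.29 ± 0.38 (39.2-fold, adjusted p = 5.36e-09) in the DOX arm. The difference was 0.01 ± 0.52 (95% interval -1.10 to 1.12), and over the 20 alternatives it ran from -0.28 to 0.56, the highest without PBS E2 replicate 1, with no call.

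Kcnh1, the potassium channel, was the least abundant of the 6 under E2 and the gene whose direction turned with the arm. It stood at 1.69, 1.90 and 2.66 CPM in PBS OIL (38 to 57 counts a library) and 1.04, 1.83 and 2.16 CPM in DOX OIL (25 to 41 counts). Under E2 it was at 0.473, 1.25 and 0.943 CPM in the PBS arm (17 to 23 counts) and at 5.11, 8.77 and 6.08 CPM in the DOX arm (99 to 170 counts). Each PBS E2 library was below each OIL library of its arm and each DOX E2 library above. The response was -1.28 ± 0.46 in the PBS arm (2.42-fold lower, adjusted p = 0.0242) and 1.99 ± 0.43 in the DOX arm (3.98-fold higher, adjusted p = 0.000594). The difference of 3.27 ± 0.63 passed (95% interval 1.93 to 4.61, adjusted p = 0.00251) and also passed in all 20 alternatives run, at 2.92 to 3.60. The fall in the PBS arm was less firm: it did not pass without PBS E2 replicate 1 (-0.92, adjusted p = 0.122), without PBS OIL replicate 3 (-1.07, adjusted p = 0.0871) or by limma voom (-1.20, adjusted p = 0.0537).

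**Figure D2:**
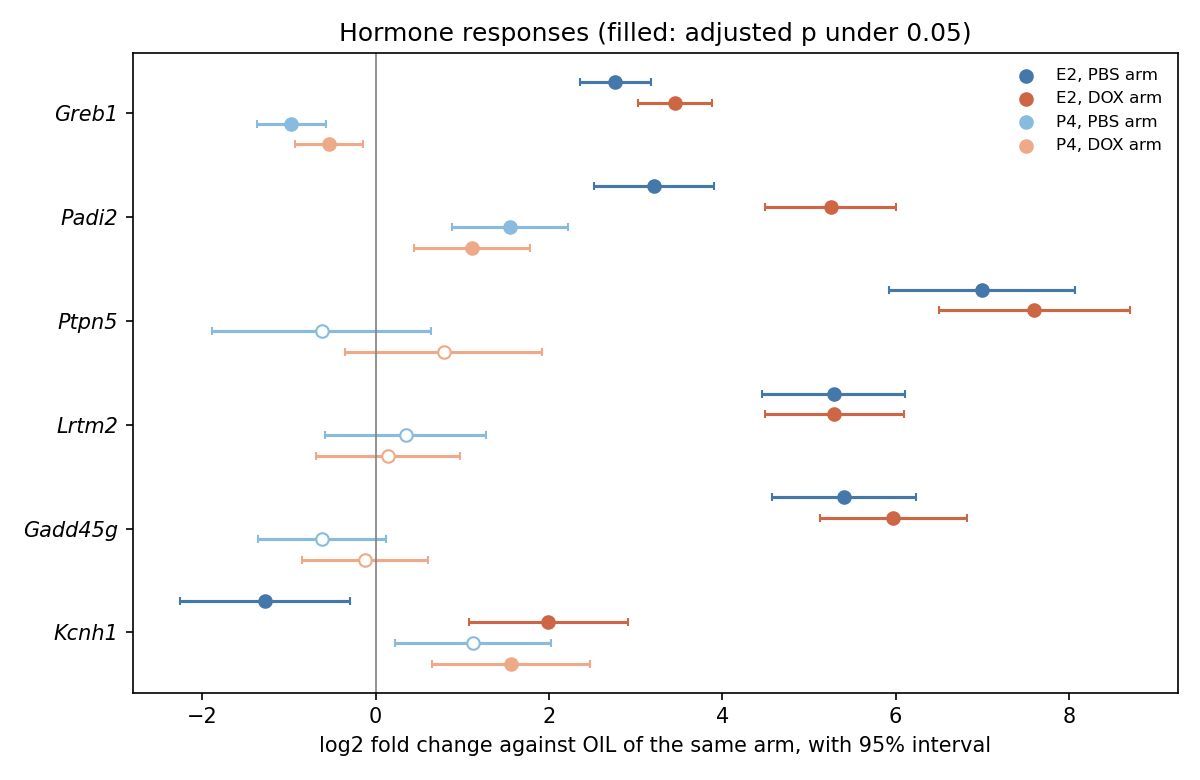
Log2 fold change of each gene against OIL of the same arm, for E2 and P4 in the PBS and DOX arms, with 95% intervals from edgeR (filled points have an adjusted p under 0.05). The E2 intervals of Padi2 and of Kcnh1 do not overlap between the arms, and Kcnh1 is the 1 gene with an E2 response below 0.

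Between the arms, then, 2 of the 6 genes, Padi2 and Kcnh1, had an E2 response that differed in the test of the difference itself. Both were larger in the DOX arm, where 22.9% of all tested genes were called for the interaction, 10.1% in that direction. The median difference over the 6 genes was 0.65, against 0.01 over all tested genes. By value the response was larger in the DOX arm for 6 of 6 genes, a sign that turned for Lrtm2 in part of the alternatives, and for 4 of the 6 the difference did not pass.

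Seen as DOX against PBS under E2, 3 of the 6 genes rose and 0 fell, where 41.0% of all tested genes were called and 20.4% rose. Kcnh1 rose by 2.95 ± 0.46, Padi2 by 2.21 ± 0.30 and Greb1 by 0.52 ± 0.18. The Greb1 call (adjusted p = 0.0304) ended without PBS E2 replicate 2 (0.35) or 3 (0.48), without DOX E2 replicate 1 (0.46) or 3 (0.52), in a fit of only the groups compared (0.49) and with the adipocyte covariate (0.76, adjusted p = 0.0577). Lrtm2 at 0.70 ± 0.30 did not pass (adjusted p = 0.0701), but did without PBS E2 replicate 1 (1.25, adjusted p = 0.000756), with the replicate block (0.76, adjusted p = 0.0483) and by limma voom (0.95, adjusted p = 7.5e-05). Gadd45g at 0.45 ± 0.32 and Ptpn5 at 0.37 ± 0.36 did not pass. With the adipocyte covariate they did, at 1.32 (adjusted p = 0.0269) and 1.41 (adjusted p = 0.0427). In the same comparison 11 of the 12 adipocyte markers were lower and 0 higher (median -4.60). Their summed level did not overlap between PBS E2 (376.8 to 5977 CPM) and DOX E2 (45.4 to 284.1 CPM). The covariate and the arm are thus not well separated under E2, and what the calls with it reflect was not tested. Padi2 and Kcnh1 were at 2.58 and 2.60 without PBS E2 replicate 1, the library with the most adipocyte signal, and at 2.41 and 2.68 with the covariate.

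Without E2, none of the 6 genes passed between the arms. Under OIL 0 of 6 passed, where 0.0129% of all genes were called, with values from -0.32 for Kcnh1 to 0.69 for Lrtm2. Under P4 0 of 6 passed, where 0% of all genes were called by edgeR, and the values ran from -0.27 for Padi2 to 1.18 for Ptpn5. Each 95% interval of the 6 genes included 0 in both comparisons, so none had an unadjusted p under 0.05, against 1253 and 822 of all genes. DESeq2 called 21 and 10 genes and limma voom 1 and 4, with 0 of the 6 among them.

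**Figure D3:**
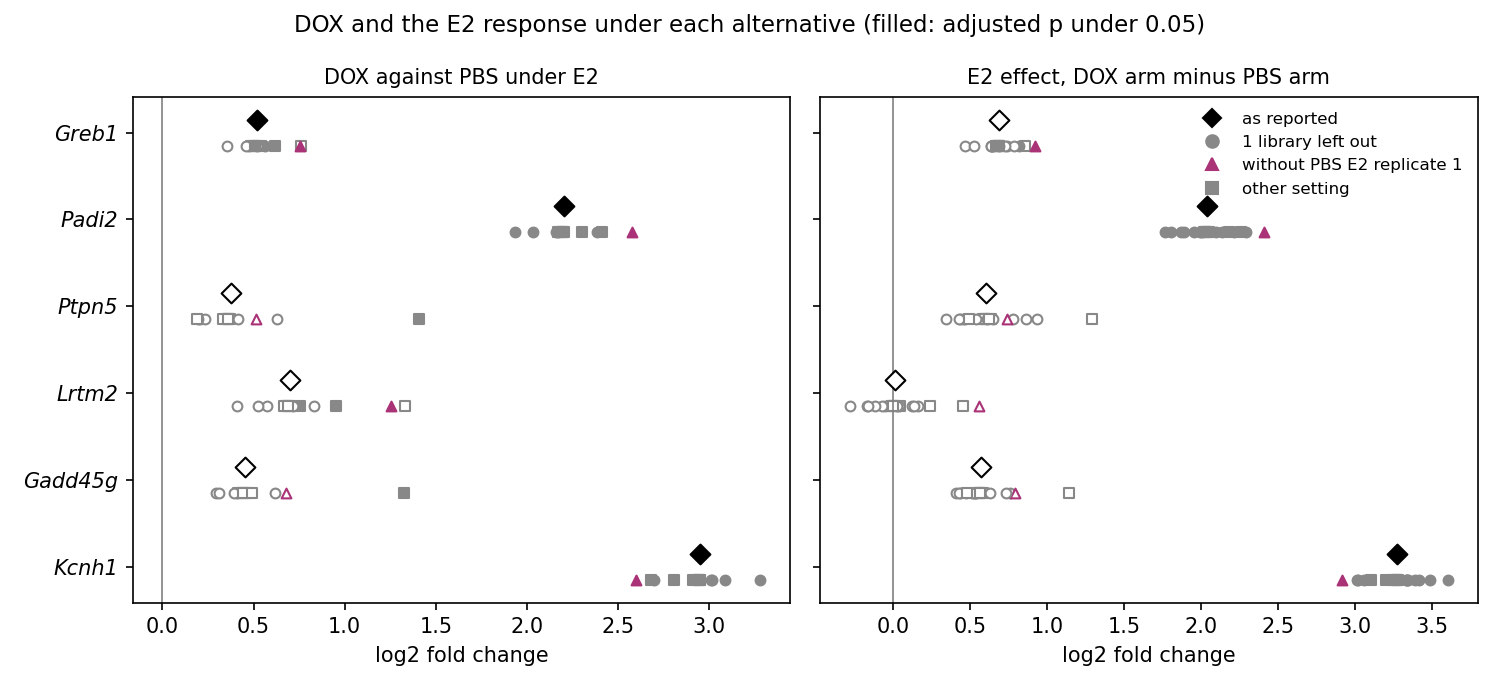
DOX against PBS under E2 (left) and the E2 effect in the DOX arm minus that in the PBS arm (right), as log2 fold changes, for the reported fit (diamonds) and each alternative below it (circles: 1 library left out; triangles: without PBS E2 replicate 1; squares: other settings; filled where the adjusted p is under 0.05). Padi2 and Kcnh1 stay filled on both sides. The calls of Greb1 vary on both sides, and those of Lrtm2, Ptpn5 and Gadd45g vary on the left only.

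P4 raised Padi2 and lowered Greb1 in both arms and raised Kcnh1 in the DOX arm. Ptpn5, Lrtm2 and Gadd45g did not pass in either arm. In the PBS arm 1 gene was called higher and 1 lower, where 31.8% of all tested genes were called, 16.2% higher and 15.6% lower. In the DOX arm 2 were called higher and 1 lower, where 29.8% were called, 14.7% higher and 15.1% lower. The E2 and P4 comparisons of an arm share its OIL libraries.

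Padi2 was at 27.1, 39.0 and 27.7 CPM in PBS P4 and 27.1, 25.3 and 25.1 CPM in DOX P4. All 6 P4 libraries lay above all 6 OIL libraries and below all 6 E2 libraries, so Padi2 was raised by either hormone. The P4 response was 1.55 ± 0.32 in the PBS arm (2.93-fold, adjusted p = 0.00222) and 1.11 ± 0.31 in the DOX arm (2.16-fold, adjusted p = 0.0151). The DOX arm call ended without DOX OIL replicate 3 (0.96, adjusted p = 0.0615).

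Greb1 moved the opposite way under the 2 hormones. It was at 23.9, 22.4 and 23.1 CPM in PBS P4 and 27.6, 32.6 and 23.2 CPM in DOX P4, each below every OIL library. The P4 response was -0.97 ± 0.19 in the PBS arm (adjusted p = 0.00154) and -0.54 ± 0.19 in the DOX arm (adjusted p = 0.0394). The DOX arm call ended in 8 of 14 alternatives (-0.59 to -0.42 among those 8), including without any DOX OIL replicate, without DOX P4 replicate 1 or 3, with DESeq2 size factors, with no filter and with the adipocyte covariate.

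Kcnh1 was at 6.21, 5.09 and 2.32 CPM in PBS P4 and 6.20, 2.86 and 5.75 CPM in DOX P4. In the PBS arm PBS P4 replicate 3 overlapped the OIL libraries, and the response of 1.12 ± 0.42 did not pass (adjusted p = 0.0527). Without that library it did (1.44, adjusted p = 0.0237), as it did by DESeq2 (1.15, adjusted p = 0.0276) and with DESeq2 size factors in edgeR (1.15, adjusted p = 0.0473). In the DOX arm it rose by 1.56 ± 0.43 (2.95-fold, adjusted p = 0.0125), a call that ended without DOX OIL replicate 1 (1.30, adjusted p = 0.0588). In the PBS arm the E2 and P4 values of Kcnh1 were -1.28 and 1.12, both against the same OIL libraries.

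Ptpn5 was at 1.89, 1.04 and 0.993 CPM in PBS P4 and 6.06, 1.84 and 1.27 CPM in DOX P4, where replicate 1 stood apart with 134 counts against 49 and 35. Its P4 response was -0.62 ± 0.59 in the PBS arm and 0.78 ± 0.53 in the DOX arm, or -0.15 without that library, and neither passed. With the adipocyte covariate the PBS arm value was 0.038. Gadd45g was at 12.6, 7.55 and 14.1 CPM in PBS P4 and 25.1, 10.6 and 9.004 CPM in DOX P4, with replicate 1 again the highest. Its P4 response was -0.62 ± 0.35 and -0.12 ± 0.34, the latter -0.72 without DOX P4 replicate 1, with no call. With the covariate these were -0.071 and 0.037. Lrtm2 was at 1.21, 1.73 and 0.899 CPM in PBS P4 and 1.95, 2.07 and 1.41 CPM in DOX P4, and its P4 response was 0.35 ± 0.44 and 0.14 ± 0.39, or 0.72 and 0.28 with the covariate, with no call. For the P4 by DOX interaction 0 of 6 genes passed, where 0.00645% of all genes were called by edgeR. Each 95% interval included 0, the widest that of Ptpn5 (-0.29 to 3.10), and 525 of all genes had an unadjusted p under 0.05.

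The order of the group means shows what the genes share. Both E2 groups led for Greb1, Padi2, Ptpn5, Lrtm2 and Gadd45g, with DOX E2 above PBS E2, and no library of PBS E2 overlapped the next group in order. The DOX E2 and PBS E2 libraries did not overlap for Greb1 and Padi2 and did for Ptpn5, Lrtm2 and Gadd45g. Below them, the 4 OIL and P4 groups overlapped their neighbours in order throughout for Ptpn5, Lrtm2 and Gadd45g. Padi2 had the P4 groups above the OIL groups with no overlap, and Greb1 the OIL groups above the P4 groups with no overlap. Kcnh1 ran from DOX E2 through DOX P4, PBS P4, PBS OIL and DOX OIL to PBS E2, and each group overlapped the next, PBS E2 and DOX OIL only through DOX OIL replicate 1.

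Per kilobase of exon, which allows genes to be compared, Gadd45g led in PBS E2 with 632 ± 166 CPM per kb (SD, n = 3), followed by Ptpn5 at 44.6 ± 9.99, Greb1 at 32.2 ± 8.91, Padi2 at 19.7 ± 8.56, Lrtm2 at 9.59 ± 5.38 and Kcnh1 at 0.121 ± 0.053. In DOX E2 Padi2 moved to the second place at 91.0 ± 21.96 CPM per kb, behind Gadd45g at 865 ± 188. In PBS OIL the range was from 14.9 ± 3.65 for Gadd45g to 0.246 ± 0.037 for Lrtm2. Ptpn5 at 0.348 ± 0.082 CPM per kb was close to the bottom of that range without E2 and second in PBS E2.

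Within the PBS E2 group, Greb1, Padi2, Ptpn5, Lrtm2 and Gadd45g ranked the libraries alike, with replicate 1 highest and replicate 2 lowest. Kcnh1 had the reverse order there. The spread was widest for Lrtm2, whose highest PBS E2 library was 2.95 times its lowest. Replicate 1 is also the deepest library and the one with the most adipocyte signal, and the part of either in these levels was not tested. In DOX E2, replicate 2 was the lowest for Greb1, Ptpn5, Lrtm2 and Gadd45g, and replicate 3 for Padi2.

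Over the 18 libraries, the log2 CPM of Ptpn5 and Gadd45g correlated at r = 0.99, the highest of the 15 pairs, and Greb1 and Gadd45g at 0.98. Kcnh1 correlated with the others at -0.14 (Greb1) to 0.28 (Padi2). These values describe 18 points that share hormone groups and library scaling. Among 12157 other genes, the 3 most like Gadd45g were Inhbb, which encodes a subunit of activin and inhibin (r = 0.996), Ptpn5 (0.991) and Ralb (0.991). For Ptpn5 they were Gadd45g, Ralb (0.991) and Inhbb (0.987). For Greb1 they were Cdk11b (0.993), Gadd45a (0.990) and the histamine receptor Hrh1 (0.988), and for Lrtm2 they were Ddx10 (0.989), Prps1 (0.988) and Tox4 (0.988). Padi2 was most like Psmd6, a proteasome subunit (0.991), Sec22b, a vesicle fusion protein (0.987), and Metap2 (0.985). For Kcnh1 the best matches were weaker, Chid1 (0.857), Setbp1 (0.855) and Rnf26 (0.844).

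Relatives of the 6 genes moved in both directions. Of 17 relatives 10 were tested. E2 raised 3 and lowered 3 in the PBS arm and raised 5 and lowered 2 in the DOX arm, with a median of 0.00 and 0.27 against -0.09 and -0.08 over all tested genes. Called over all tested genes were 61.4% in the PBS arm (29.6% higher, 31.9% lower) and 72.6% in the DOX arm (35.1% higher, 37.5% lower). Both other Gadd45 genes rose with E2, Gadd45a by 2.64 ± 0.28 in the PBS arm and 3.18 ± 0.28 in the DOX arm and Gadd45b by 1.10 ± 0.27 and 1.23 ± 0.27. Both fell with P4 in the PBS arm (-0.92 ± 0.28 and -1.08 ± 0.28), where Gadd45g at -0.62 did not pass.

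Among the deiminases, Padi1 rose with E2 by 3.46 ± 0.62 in the PBS arm and 4.88 ± 0.66 in the DOX arm. With P4 Padi1 fell (-4.04 ± 0.69 and -2.23 ± 0.61), opposite to Padi2. Padi1 stood at 534 ± 390 CPM in PBS E2 and 1228 ± 160 CPM in DOX E2 (SD, n = 3), and its DOX effect under E2 (1.20 ± 0.56) did not pass. Padi3, at 37 counts over the PBS E2 libraries and 148 over the DOX E2 libraries, rose with DOX under E2 by 2.34 ± 0.71.

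Greb1l, the closest relative of Greb1, turned sign like Kcnh1 did. It fell with E2 in the PBS arm (-0.64 ± 0.14) and rose in the DOX arm (0.52 ± 0.14), a difference of 1.16 ± 0.19 (adjusted p = 0.00112), with 12.5 to 13.4 CPM in PBS E2 and 21.6 to 26.3 CPM in DOX E2. Of the EAG-related channels, Kcnh3 fell with E2 in both arms. Its E2 response was -0.93 ± 0.26 in the PBS arm and -3.73 ± 0.31 in the DOX arm, a difference of -2.80 ± 0.40 (adjusted p = 0.000369). Kcnh2, which encodes the ERG channel, rose with P4 in both arms (1.001 ± 0.20 and 1.05 ± 0.20) and did not pass with E2. Ptprr, a MAP kinase phosphatase related to Ptpn5, fell with E2 in the PBS and DOX arms (-2.46 ± 0.27 and -2.15 ± 0.26).

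**Figure D4:**
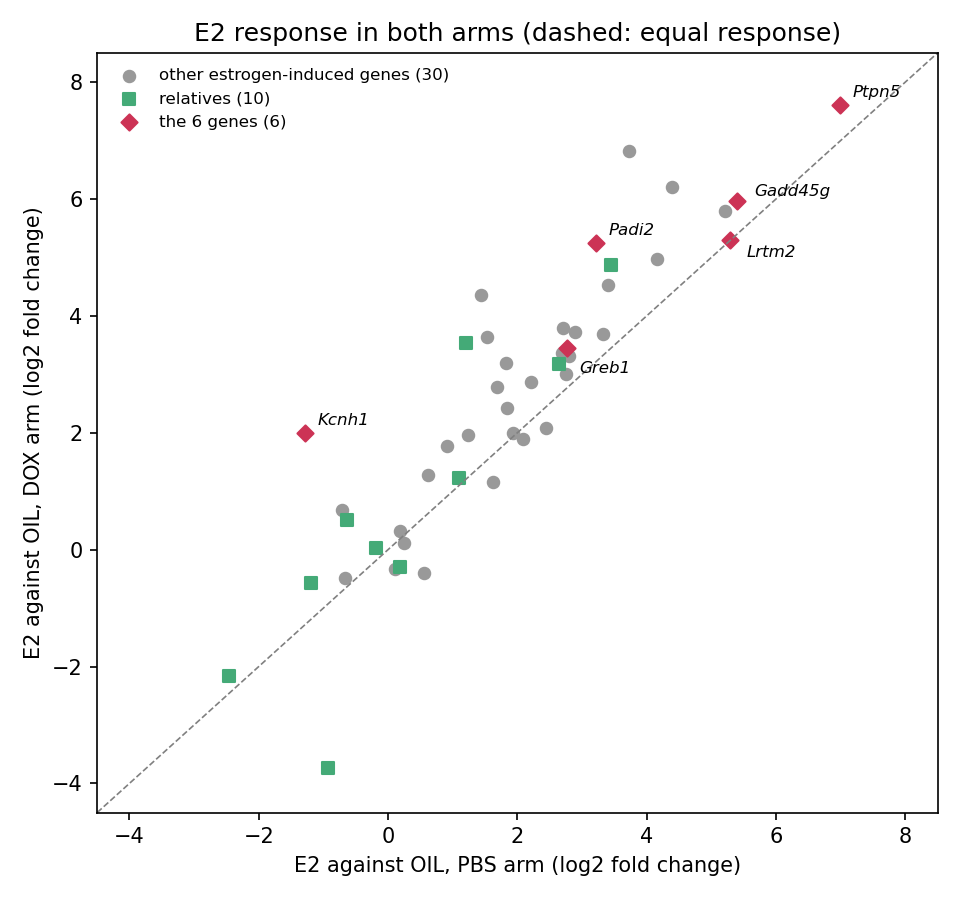
E2 response in the PBS arm (horizontal) against the DOX arm (vertical), as log2 fold changes against OIL of the same arm, for the 6 genes (red), 30 other estrogen-induced genes (grey) and 10 relatives (green); the dashed line marks equal responses. The 6 genes lie on or above the line, and Kcnh1 lies left of 0 on the horizontal axis and above 0 on the vertical axis.

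Other estrogen-induced genes of the uterus were a list of 32, chosen from general knowledge with earlier results of these data known. Their values stand beside the 6 as a description and are no independent reference. E2 raised 24 and lowered 1 in the PBS arm (median 1.89) and raised 26 and lowered 1 in the DOX arm (median 2.94). In the PBS arm 29.6% of all tested genes rose and 31.9% fell, and in the DOX arm 35.1% rose and 37.5% fell. Inhbb rose by 5.21 ± 0.29 and 5.80 ± 0.29, Ramp3, a partner of the calcitonin-like receptor, by 4.40 ± 0.31 and 6.20 ± 0.34, Odc1, the first enzyme of polyamine synthesis, by 1.85 ± 0.13 and 2.43 ± 0.14, and the progesterone receptor Pgr by 2.76 ± 0.21 and 2.999 ± 0.21. Lactoferrin (Ltf) did not pass in either arm (0.24 ± 0.73 and 0.11 ± 0.73).

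In the E2 by DOX interaction 7 of the 32 were higher and 0 lower, with a median of 0.66, close to the 0.65 of the 6 genes. Over all tested genes 22.9% were called there, 10.1% higher and 12.8% lower. The 4 of the 32 with the smallest p were the gap junction gene Gjb2 (2.92 ± 0.54), the chaperone Hspa5 (1.37 ± 0.30), Ramp3 (1.81 ± 0.40) and lipocalin Lcn2 (2.10 ± 0.48). With P4, 7 of the 32 rose and 8 fell in the PBS arm and 8 rose and 5 fell in the DOX arm. The shares of all tested genes were 16.2% and 15.6% in the PBS arm and 14.7% and 15.1% in the DOX arm. Amphiregulin (Areg) had 617 counts over the PBS P4 libraries and 0 over the PBS OIL libraries, at least 202-fold higher against a floor of 3 counts over the group. In the DOX arm it had 824 counts with P4 and 1 with OIL. Mt2 rose with P4 by 2.08 ± 0.22 in the PBS arm, Odc1 by 1.18 ± 0.13 and the calcium-binding protein gene S100g by 3.70 ± 0.42.

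Of 22 estrogen receptors and cofactors 21 were tested; Foxa1 had 0 counts in every library. E2 raised 10 and lowered 7 in the PBS arm and raised 7 and lowered 9 in the DOX arm, and with DOX under E2 3 were higher and 9 lower. Called over all tested genes were 61.4% and 72.6% with E2 in the PBS and DOX arms. With DOX under E2 41.0% were called, 20.4% higher and 20.6% lower. In the interaction 2 of the 21 were higher and 4 lower, where 10.1% of all tested genes were higher and 12.8% lower. Esr1 stood at 695 ± 164 CPM in PBS E2 and 427 ± 68.4 CPM in DOX E2 (SD, n = 3) and fell with E2 in the DOX arm (-0.64 ± 0.15, adjusted p = 0.0013) but did not pass in the PBS arm (0.22 ± 0.15), a difference of -0.86 ± 0.21. The membrane estrogen receptor gene Gper1 (listed as Gpr30) differed by -2.73 ± 0.61, Ncoa2 by -0.76 ± 0.18 and the acetyltransferase gene Ep300 by -0.44 ± 0.12. E2 raised Prmt1 (1.38 ± 0.12 and 1.94 ± 0.12), Carm1 (0.70 ± 0.07 and 0.98 ± 0.07), Pelp1 (0.92 ± 0.09 and 1.19 ± 0.09) and Nrip1 (1.61 ± 0.17 and 1.85 ± 0.17) in the PBS and DOX arms.

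Of 9 genes encoding partners or substrates of STEP and GADD45 proteins, E2 raised 3 and lowered 3 in the PBS arm, where 61.4% of all genes were called. Pcna rose by 1.43 ± 0.12 and Fyn by 0.70 ± 0.10, while Mapk3 fell (-0.75 ± 0.11). In the DOX arm 4 rose and 3 fell, where 72.6% of all genes were called. In the E2 by DOX interaction 0 of the 9 were called, where 22.9% of all tested genes were. With DOX under E2 3 of the 9 were higher and 2 lower, where 20.4% and 20.6% of all tested genes were. There Map3k4 fell (-0.64 ± 0.14) and Mapk3 fell (-0.38 ± 0.11), while Ptk2b (0.57 ± 0.15) rose. Markers of other cell types moved in the same comparisons. With E2, 5 of 10 stromal markers fell in the PBS arm and 8 in the DOX arm, where 31.9% and 37.5% of all tested genes fell. Of 12 epithelial markers 2 rose and 3 fell in the PBS arm, and 6 rose and 1 fell in the DOX arm. The shares of all tested genes that rose with E2 were 29.6% in the PBS arm and 35.1% in the DOX arm. With P4, 7 of 10 smooth muscle markers rose in each arm, and 4 of 10 stromal markers rose in the PBS arm and 8 in the DOX arm. Over all tested genes 16.2% rose with P4 in the PBS arm and 14.7% in the DOX arm. In the PBS arm 4 of 12 adipocyte and 4 of 10 leukocyte markers fell with P4, where 15.6% of all tested genes fell. The summed level of 12 epithelial markers was 751 to 1086 CPM in PBS E2 and 1027 to 1442 CPM in DOX E2, and that of 10 stromal markers 4276 to 5967 CPM and 2372 to 3460 CPM, with 0 of either list undetected. With DOX under E2, 20.4% of all tested genes were higher and 20.6% lower. In that comparison 2 of 12 epithelial markers were higher and 0 lower. Of 10 stromal markers 1 was higher and 2 lower, and 1 of 10 smooth muscle markers was lower. Of the other lists 1 of 6 endothelial markers was higher, 0 of 10 leukocyte markers passed, and 3 of 8 oviduct and ciliated cell markers and 1 of 8 nerve markers tested were lower. Of 8 uterine markers 1 was higher and 1 lower, and of 5 ovarian markers tested 1 was higher and 3 lower. The part of these cells in the results for the 6 genes was not tested.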

How the data were processed

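The authors deposited whole-number counts, 1 per gene symbol and library. The submitters' processing notes name HISAT2 2.1.0, StringTie 1.3.4d, SAMtools 1.6, Trimmomatic 0.36, FastQC 0.11.5, R 3.4.4 and DESeq2 1.18.1, and build GRCm38; annotation and strand setting are not stated in these notes or the labels. No library was a copy of another of its group. The filterByExpr step of edgeR 4.0.16 left 15494 of 22238 symbols. TMM-scaled counts were fitted by robust quasi-likelihood, 1 coefficient per group over 18 libraries, and 9 contrasts were tested, each with Benjamini-Hochberg adjustment over every tested gene (threshold 0.05). The SE is the unshrunken log2 change over the square root of F. Depth limits precision for Kcnh1, Lrtm2 and Ptpn5 outside E2, at 18 to 159 counts a library. It also does for Kcnh1 in PBS E2, at 17 to 23 counts a library. CPM per kb used GENCODE M21 exons, and log2 CPM a prior count of 2. The fit was tested on simulated data with changes placed in DOX E2. Changes of 1.5-fold, 2-fold and 4-fold were given to 67, 67 and 66 of 15335 genes, and the others were flat over the groups. In the data 22.9% of tested genes passed the interaction, so the adjusted threshold differs and the recovered shares are not those of the real test. In the simulation the interaction test recovered 10.4% of 1.5-fold, 40.3% of 2-fold and 92.4% of 4-fold changes. For E2 against OIL in the DOX arm the recovered shares were 37.3%, 77.6% and 95.5%. A difference between arms of 2-fold or less can thus fail to pass. Alternatives changed the scaling (size factors of DESeq2 1.42.0), the test (DESeq2 Wald over 19307 genes without the filter; voom of limma 3.58.1 with library quality weights, which change the weight of each library as well as the test), the filter (none, or 1 CPM in 3 libraries), the groups fitted, a block on replicate number, a covariate (mean log2 CPM of 12 adipocyte markers) and each library in turn.

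Named are the 6 genes, their relatives, up to 4 genes of each list with the smallest p, and the 3 genes best correlated with each of the 6 among genes averaging 1 or more on the log2 CPM scale. Lists were those described in the report and markers of uterus, ovary, epithelium, stroma, smooth muscle, endothelium, leukocytes, oviduct, nerve and fat. Genes, lists and alternatives were chosen with earlier results of these data known. In the lists 6 symbols were matched by an older name.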

Additional observations from a re-analysis of the deposited data

Results flagged for a closer look

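Among the genes of the named-gene rule and Hhat, 18 had an E2 response that differed between the DOX and PBS arms in edgeR's interaction test (adjusted p under 0.05), given here as the log2 response of the DOX arm minus that of the PBS arm. Of the 6 estrogen-induced genes these were Padi2 (2.04) and Kcnh1 (3.27), the latter with a turn of sign. Of the relatives they were Greb1l (1.16), which also turned sign, and Kcnh3 (-2.80). Of the other estrogen-induced genes named, Gjb2 differed by 2.92, Lcn2 by 2.10, Ramp3 by 1.81, Hspa5 by 1.37, Mt2 by 1.10 and Odc1 by 0.58. Sprr2b had 0 counts over the DOX OIL libraries, and its fitted value of 10.16 depends on the prior count and is no bound. Of the receptors and cofactors, Gpr30 differed by -2.73, Esr1 by -0.86, Ncoa2 by -0.76, Ep300 by -0.44, Prmt1 by 0.56 and Carm1 by 0.28. Hhat, which overlaps Kcnh1, differed by -0.74. Genes of the lists were named partly for a small p in this same test, so the 18 are a listing and no rate. Over all tested genes 22.9% were called for this interaction. With 3 libraries a group, single libraries were not tested as outliers.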

How the results depend on the processing

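Of 828 alternative values for the 54 fold changes of the 6 genes, 770 kept their direction and side of the threshold, 19 lost a call, 12 gained one and 27 turned sign, 0 of these called in either fit. The Padi2 and Kcnh1 calls for DOX under E2 and for the interaction held in every alternative run. The count of genes called for the E2 by DOX interaction was 5331 by voom with quality weights against 3553. With the adipocyte covariate it was 3089 against 4930 for P4 in the PBS arm and 3637 against 6358 for DOX under E2. For the P4 by DOX interaction it was 1, against 0 with the stricter filter, with only the groups compared, with the replicate block and with the covariate, and 2 by DESeq2. For DOX under OIL it was 2, against 0 with the block or the covariate, 21 by DESeq2 and 1 by voom. For DOX under P4 it was 0, against 10 by DESeq2 and 4 by voom. The cause was not tested. Leaving out 1 library gave 3146 (without PBS P4 replicate 3) to 4460 genes for P4 in the PBS arm, 3057 (without DOX P4 replicate 3) to 3896 against 4618 for P4 in the DOX arm, 0 to 1 for the P4 by DOX interaction and 0 to 2 for DOX under OIL. Of the 6 genes, 1 to 3 were then called for P4 in the DOX arm, against 3.

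The 27 turned signs lie in 13 of the 54 fold changes. The Lrtm2 E2 by DOX difference was -0.0099 with no filter, -0.0048 with only the groups compared, -0.0018 by DESeq2 and -0.28 to 0.56 with 1 library left out. With the covariate, Ptpn5 was at 0.038 for P4 in the PBS arm and 0.12 for DOX under OIL, and Gadd45g at 0.037 for P4 in the DOX arm and 0.18 for DOX under OIL, where voom gave 0.010. With 1 library left out, P4 in the DOX arm ran from -0.15 to 1.17 for Ptpn5, -0.033 to 0.30 for Lrtm2 and -0.72 to 0.14 for Gadd45g. The P4 by DOX difference ran from -0.40 to 0.071 for Lrtm2 and -0.10 to 0.76 for Gadd45g. DOX under OIL ran from -0.30 to 0.035 for Greb1, -0.11 to 0.40 for Padi2 and -0.56 to 0.032 for Ptpn5, and DOX under P4 from -0.22 to 0.64 for Gadd45g and -0.20 to 0.41 for Kcnh1.

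Whether replicate numbers pair the libraries is not known. Of 45 same-numbered pairs, 12 correlated above 0.1 in their deviations from the group means (-0.28 to 0.36). Pairs with different numbers were not correlated, so these values cannot decide it. With the number as a block, 3613 genes were called for the E2 by DOX interaction and 6381 for DOX under E2, and of the 6 genes only the Lrtm2 call given above changed. Depth limits the low levels: Kcnh1 had 17 to 57 counts a library under OIL and PBS E2, and Lrtm2 18 to 38 under OIL.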
